A study of Homo sapiens with 16 samples.

Results

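The genes of cholesterol and fatty acid synthesis that are under the control of the sterol regulatory element binding proteins (SREBPs) were followed through 2 human colon cancer lines, SW480 and SW620, which were established from a primary tumour and a lymph node metastasis of the same patient. The genes were chosen by symbol from a list of 32 sterol and lipid synthesis genes that was drawn up with earlier results of these data known, and make up 32 of the 63677 identifiers in the count table. They comprise 6 regulators and carriers, 7 genes of the mevalonate steps, 11 of the steps from squalene to cholesterol, and 8 of fatty acid synthesis, elongation and desaturation. All 32 passed the filter on low counts.

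Poly(A) RNA was sequenced in 16 libraries, 2 in each of 8 groups: untreated parental SW620, SW620 transduced with an empty vector, SW620 transduced with oestrogen receptor beta (ERB, the product of ESR2), ERB-transduced SW620 given DMSO for 24 h, ERB-transduced SW620 given 10 nM estradiol (E2) for 24 h, untreated parental SW480, SW480 with empty vector and SW480 with ERB. Every treated library therefore carries ERB, and no vector or parental cells were treated. The labels give DMEM with serum as the medium for both lines, do not name the vector or its promoter, and do not say whether a transduced group is 1 clone or a pool. Nothing in the labels says that the 2 libraries of a group came from separate cultures, so that p-values measure the spread between these libraries, which may be technical. ESR2, the transduced gene, had 100 to 187 reads in each of the 8 libraries labelled ERB and 0 to 4 in the other 8, so it fits the labels in every library. Library totals ran from 12743940 to 18948283 reads.

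Several libraries stood apart. Of 300 genes that reached 5 CPM (read counts scaled to library size) and were at least 8-fold higher in parental SW480 than in parental SW620, the median gene reached 1.41 to 2.02% of its parental SW480 level in the 10 SW620 libraries, 2.2 and 2.1% in the 2 libraries labelled SW480 with vector, and 17.1 and 21.0% in the 2 labelled SW480 with ERB. Of 35 genes higher in parental SW620 by the same rule, the median gene reached 47.2 to 110% of its parental SW620 level in the 10 SW620 libraries. It reached 4.58 and 5.59% in parental SW480, 28.8 and 66.2% in the libraries labelled SW480 with vector, and 54.4 and 48.3% in those labelled ERB. By the 300 genes the libraries labelled SW480 with vector went against their line label and those labelled ERB in large part. By the 35 genes the libraries labelled transduced SW480 all lay above parental SW480. Results for SW620 are therefore also given from the 10 SW620 libraries alone. Libraries also differed in how well GC-rich transcripts were represented: the median log2 deviation of the GC-richest quintile of genes minus that of the GC-poorest quintile was −0.50 to 0.62 in untreated SW620, −1.37 and −1.91 with DMSO, 0.14 and 0.60 with E2, −0.34 and −2.12 in parental SW480, −0.69 and 2.18 in the libraries labelled SW480 with vector, and 2.46 and 1.11 in those labelled SW480 with ERB. Each comparison is thus reported from a fit of all 16 libraries and, within SW620, from a fit of its 10 libraries in which GC content and transcript length enter as per-library offsets. Of 8 epithelial markers, 7 exceeded 1 CPM in every library and KRT20 reached at most 0.414 CPM, while all 3 adipocyte and all 3 hepatocyte markers stayed under 1 CPM everywhere. So did 5 of 7 leukocyte, 3 of 6 fibroblast and 3 of 4 endothelial markers; the others reached 2.39 (CD14) and 3.86 (LYZ), 14.9 (COL1A1), 6.59 (LUM) and 6.01 (PDGFRB), and 3.88 (VWF) CPM. Among the low ones PTPRC, COL1A2, COL3A1 and PECAM1 stayed under 0.1 CPM, so these lists held both nearly absent and present markers.

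SREBPs are transcription factors made as membrane proteins of the endoplasmic reticulum. When sterols are scarce, SCAP escorts them to the Golgi, where they are cleaved and released to the nucleus; when sterols are plentiful, INSIG1 and INSIG2 hold SCAP back. SREBF2 encodes the form that mainly drives cholesterol synthesis and SREBF1 the forms that mainly drive fatty acid synthesis, and SREBF2, INSIG1 and most of the synthesis genes are themselves SREBP targets, so that their mRNAs usually move together. Colon cancer cells, like other dividing cells, make much of their own sterol and fatty acid for membranes.

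SREBPs bind a sterol regulatory element, commonly next to a CCAAT box bound by NF-Y or a GC box bound by SP1. Promoter windows of 250 bases before the RefSeq start (build GRCh38.p14, whereas the expression tables were made on GRCh37) were found for 28 of the 32 genes. Those of SREBF2, INSIG1, STARD4 and SCD are shown because the comparisons below turn on these 4 genes. They are written 5′ to 3′ on the gene's strand, with the sterol element (the motif known as SRE-1, in its classic form) and each CCAAT or its reverse complement ATTGG in capitals. The positions are chr22:41832855-41833104, plus strand, for SREBF2, chr7:155297628-155297877, plus strand, for INSIG1, chr5:111512536-111512785, minus strand, for STARD4, and chr10:100346983-100347232, plus strand, for SCD.
SREBF2: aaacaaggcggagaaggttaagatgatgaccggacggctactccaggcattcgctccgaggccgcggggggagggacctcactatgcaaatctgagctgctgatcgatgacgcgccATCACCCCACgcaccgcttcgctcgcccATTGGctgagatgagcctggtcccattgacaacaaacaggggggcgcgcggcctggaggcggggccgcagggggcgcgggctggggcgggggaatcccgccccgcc
INSIG1: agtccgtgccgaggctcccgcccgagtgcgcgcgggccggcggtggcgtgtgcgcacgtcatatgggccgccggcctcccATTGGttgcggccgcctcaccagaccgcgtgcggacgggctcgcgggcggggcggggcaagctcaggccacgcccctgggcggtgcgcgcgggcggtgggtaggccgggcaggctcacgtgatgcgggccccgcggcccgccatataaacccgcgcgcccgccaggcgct
STARD4: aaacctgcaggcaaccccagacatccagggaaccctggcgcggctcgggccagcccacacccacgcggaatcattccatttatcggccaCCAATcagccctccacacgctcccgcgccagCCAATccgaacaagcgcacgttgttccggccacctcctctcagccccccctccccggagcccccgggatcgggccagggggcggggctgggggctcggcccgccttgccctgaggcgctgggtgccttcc
SCD: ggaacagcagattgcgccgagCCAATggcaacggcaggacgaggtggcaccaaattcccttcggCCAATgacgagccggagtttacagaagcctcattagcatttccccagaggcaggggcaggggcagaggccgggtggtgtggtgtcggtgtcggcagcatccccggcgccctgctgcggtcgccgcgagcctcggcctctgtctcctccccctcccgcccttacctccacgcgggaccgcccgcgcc
A gene with several RefSeq starts had a window for each, 39 windows for the 28 members, and was counted when any of its windows held the motif. The SRE-1 motif, searched on both strands, occurred in 1 of the 28 members, SREBF2 (3.57%), against 0.0439% of the 27305 genes with a window. CCAAT on either strand occurred in 20 of 28 (71.4%) against 37.0% of genes, and the GC box GGGCGG on either strand in 27 of 28 (96.4%) against 46.2%. No motif of the 3 holds another. These are matches of letters in such windows, not measured binding.

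In untreated SW620 the members spanned a wide range of expression. On the length-scaled FPKM scale, median over the 6 untreated SW620 libraries, FDPS, which makes farnesyl diphosphate, was highest at 509, followed by FDFT1, the squalene synthase, at 282, EBP, a sterol isomerase, at 256, ACLY, which makes cytosolic acetyl-CoA from citrate, at 177 and DHCR7, the last reductase of the pathway, at 166. The range of FDPS over these libraries (386 to 573) lay above the other 4. The ranges of FDFT1 (159 to 306), EBP (194 to 281), ACLY (124 to 210) and DHCR7 (104 to 186) overlapped one another except for EBP and DHCR7, so the order of neighbours among these 4 is not resolved. The lowest levels were those of the regulators INSIG2 at 3.77 and STARD4, a cytosolic sterol carrier, at 3.46, while SREBF1 stood at 141 and SREBF2 at 71.2. CYP51A1, the lanosterol demethylase, is uncertain: its FPKM was 29.2 times its CPM per kilobase, against a median of 1.68 times for the other members and at most 8.52 for ELOVL6, so the 2 deposited tables disagree on its level.

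**Figure D1:**
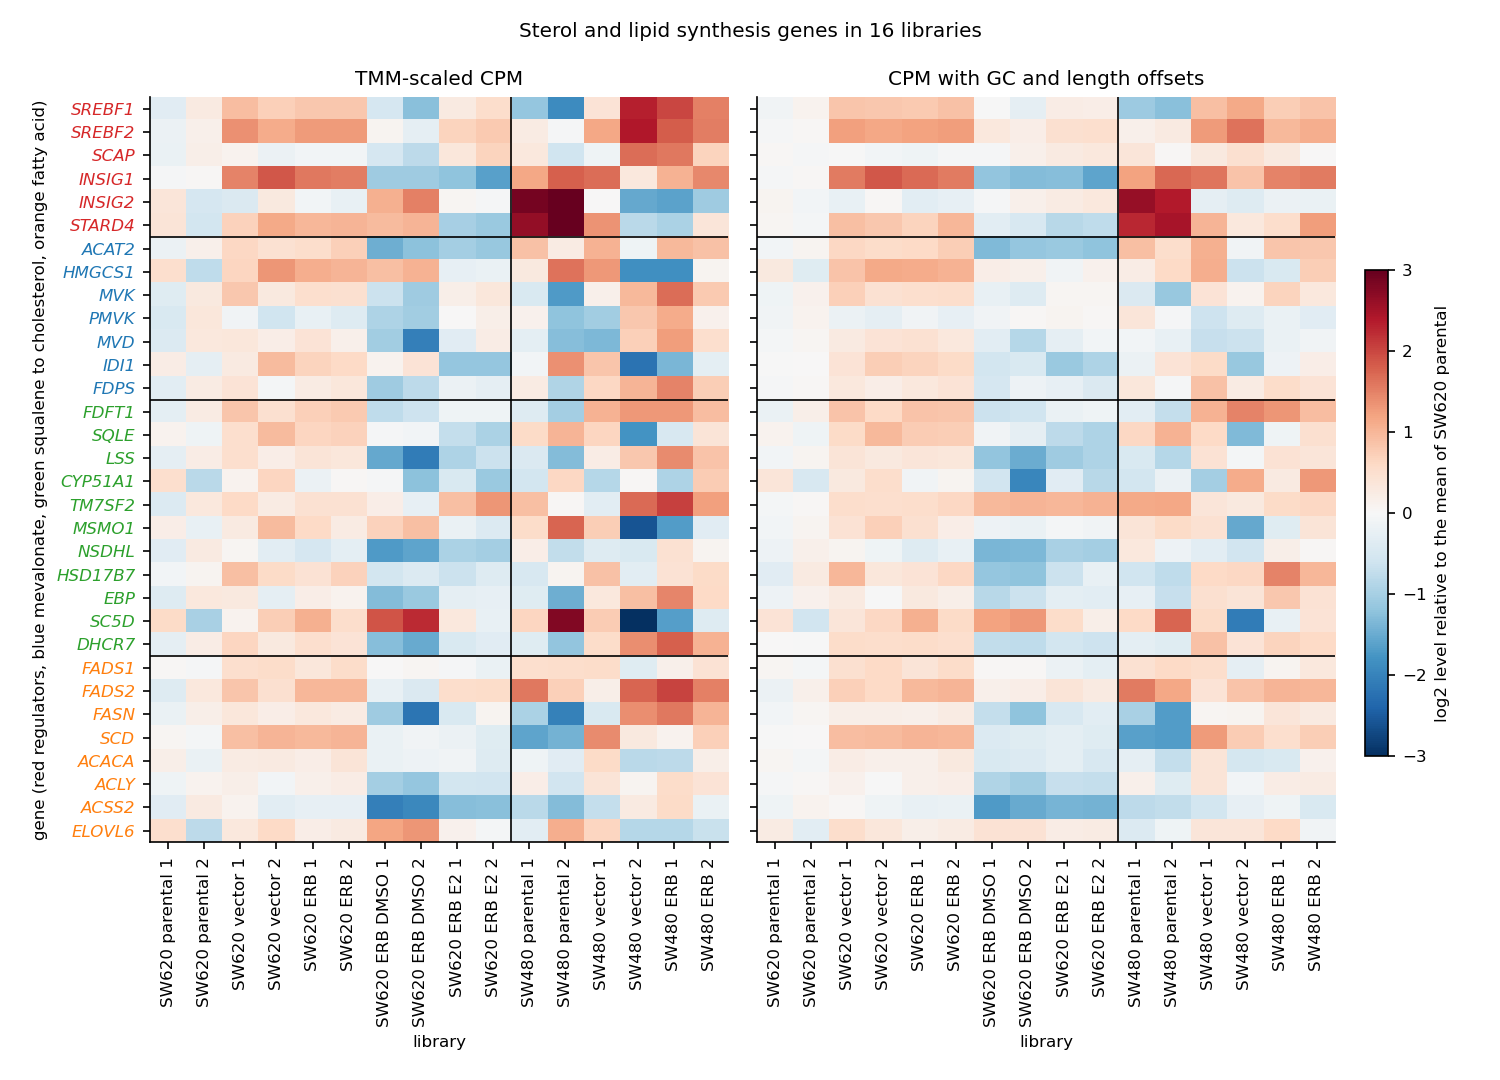
Log2 level of each of the 32 genes relative to the mean of the 2 parental SW620 libraries, genes in rows ordered by role (label colours) and the 16 libraries in columns, on TMM-scaled CPM (left) and on CPM with GC and length offsets (right); red is higher, blue lower, and the colour scale ends at −3 and 3. INSIG1 is red in the 4 untreated transduced SW620 libraries and blue in all 4 treated ones on both scales, and INSIG2 and STARD4 are darkest red in parental SW480.

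The untreated parental lines were compared first. INSIG2, one of the proteins that retain SCAP, and STARD4 were much lower in SW620 than in SW480, INSIG1 was lower, and SCD, the stearoyl-CoA desaturase, was higher. INSIG2 stood at 5.39 and 2.96 TMM-scaled CPM in the 2 parental SW620 libraries and at 30.6 and 66.4 in the 2 parental SW480 libraries. STARD4 stood at 4.65 and 2.41 against 22 and 75.3, and the groups did not overlap for either gene. SCD stood at 225 and 205 CPM in SW620 and at 72.3 and 81.1 in SW480, and INSIG1 at 8.06 and 8.33 against 18.3 and 28.3. Again no library of one line reached the levels of the other.

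In the fit of all 16 libraries (edgeR's quasi-likelihood F test, Benjamini-Hochberg adjusted p over 17464 genes, called under 0.05) 4 of the 32 members were called, of which SCD was higher in SW620 and the other 3 lower. Of all genes 18.0% were called, 6.84% as higher and 11.2% as lower. The log2 fold change was −3.53 ± 0.57 (SE; adjusted p = 0.0012) for INSIG2, −3.78 ± 0.75 (adjusted p = 0.0044) for STARD4, −1.51 ± 0.42 (adjusted p = 0.028) for INSIG1 and 1.48 ± 0.34 (adjusted p = 0.01) for SCD. The transcription factors themselves were not called: SREBF1 was at 1.48 ± 0.52 (adjusted p = 0.07), and the levels of SREBF2, 93.3 and 118 CPM in SW620 and 125 and 103 in SW480, overlapped. SCAP, the escort protein, also overlapped, with 82.8 and 107 against 118 and 62.6. The 7 mevalonate genes and the 11 genes from squalene to cholesterol gave no call.

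The second parental SW480 library was the GC-poorest of the 16, and over the 32 members the log2 fold change and transcript GC content had a Pearson r of 0.69 (genes share their libraries and are not replicates); with GC and length offsets in the fit of all 16 libraries r was 0.42. With those offsets 11 members were called, 6 higher in SW620 (13.6% of all genes) and 5 lower (19.3%). INSIG2 was then at 26.3 and 22.6 CPM in parental SW480 and 4.54 and 4.10 in parental SW620, a log2 fold change of −2.49 ± 0.20 in place of −3.53, and STARD4 was at −2.37 ± 0.26. SCD and SREBF1 were at 1.65 ± 0.17 and 1.17 ± 0.15, so that the desaturase and SREBF1 both passed as higher in SW620. FASN, the fatty acid synthase, was at 1.27 ± 0.21 (adjusted p = 0.00054), and FADS2, a polyunsaturated fatty acid desaturase, at −1.37 ± 0.20 (adjusted p = 0.00015), edgeR with offsets; FASN, FADS2, and TM7SF2, a sterol reductase at −1.16 ± 0.14, were named here after their values were seen. Leaving out 1 library at a time, the fit without offsets called 2 to 9 members.

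**Figure D2:**
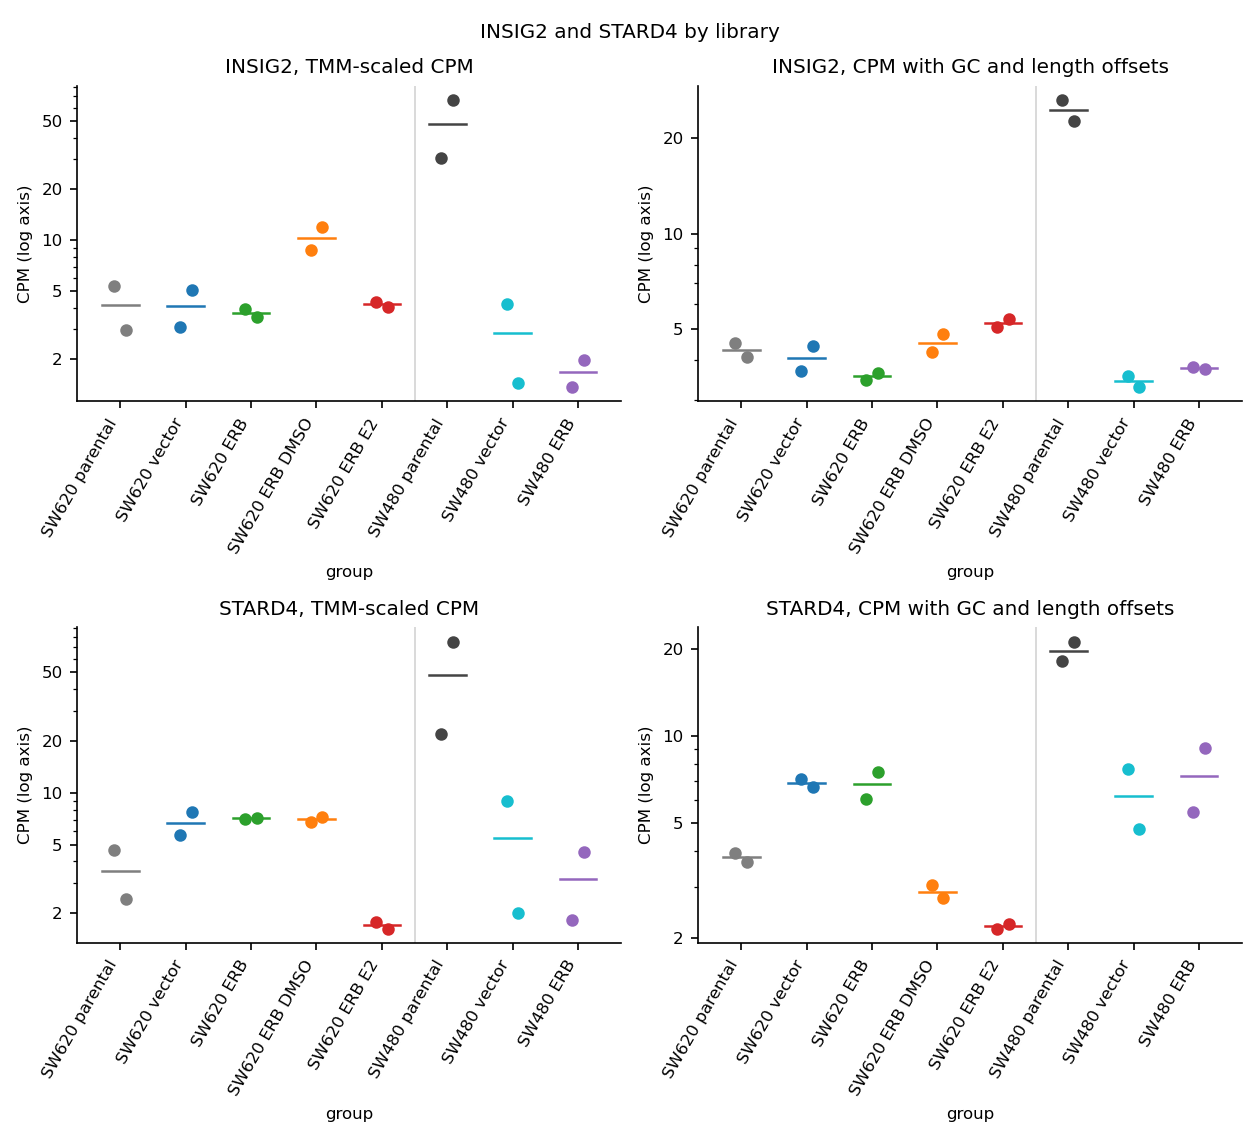
Level of INSIG2 (top) and STARD4 (bottom) in each library by group, as TMM-scaled CPM (left) and CPM with GC and length offsets (right), log axes; points are libraries and bars are group means of 2 libraries. On the right the 2 parental SW480 libraries lie at 22.6 and 26.3 for INSIG2, above all 14 others, which lie between 3.29 and 5.38.

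SW620 cells with the empty vector were compared with the parental line. Transduction and anything else that differed between these cultures cannot be told apart. SREBF2, INSIG1 and SCD stood above their parental levels in vector cells, and in ERB cells at levels like those with vector. SREBF2 was at 93.3 and 118 CPM in parental cells, 274 and 228 with vector and 256 and 257 with ERB. INSIG1 was at 8.06 and 8.33, 22.9 and 29.8, and 24.4 and 23.6. The 2 transduced groups overlapped or lay side by side for both genes, and neither reached down to the parental libraries. SCD was at 225 and 205 in parental cells, 399 and 433 with vector and 419 and 433 with ERB. In bulk RNA, fewer cells with a transcript and less of it per cell cannot be told apart, here and in every comparison that follows.

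The test of these differences depended on the fit. With all 16 libraries edgeR called no member (0.0% of all genes called for vector against parental cells), with 4 of the 32 members and 276 of 17464 genes at an unadjusted p under 0.05; DESeq2 and limma-voom also called 0 members. The median member was at a log2 fold change of 0.47, the median of all genes at 0.00, and 27 of 32 members were above 0. With the 10 SW620 libraries alone and GC and length offsets, 13 members were called, all higher, against 0.847% of all 16533 genes called higher, and the median member was at 0.53 against 0.02 for all genes. Without the offsets the SW620 libraries alone gave 2 calls among the members (0.0665% of all genes called higher). The parental libraries had differed from each other by a median of 0.55 (log2) over the members on the TMM scale and by 0.15 with offsets.

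Among the regulators, SREBF2 rose 2.3-fold in that fit (log2 1.2 ± 0.08, adjusted p = 7.5e-05), INSIG1 3.32-fold (1.73 ± 0.16, adjusted p = 0.00083) and SREBF1 1.77-fold (0.82 ± 0.10, adjusted p = 0.0033). SCAP and INSIG2 were at −0.05 ± 0.10 and −0.09 ± 0.19, and were not called. Their levels with offsets, 98.0 and 93.2 CPM for SCAP with vector against 102 and 96.7 in parental cells, lay close together. STARD4 was at 0.84 ± 0.19 and missed the threshold (adjusted p = 0.073).

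Of the 7 mevalonate genes, 3 rose: HMGCS1, which makes HMG-CoA, by 0.99 ± 0.20, and ACAT2, the acetoacetyl-CoA thiolase, and mevalonate kinase MVK by 0.60 each. The kinase PMVK was the exception in sign, at −0.21 ± 0.10 (not called). Of the 11 genes from squalene to cholesterol, 4 rose: SQLE, squalene monooxygenase, by 0.80 ± 0.16, FDFT1 by 0.75 ± 0.11, DHCR7 by 0.54 ± 0.08 and TM7SF2 by 0.51 ± 0.10. Lanosterol synthase LSS was at 0.34 ± 0.10 (adjusted p = 0.15), and NSDHL, a sterol dehydrogenase, at −0.01 ± 0.11. Of the 8 fatty acid genes, the 3 desaturases rose, SCD by 0.94 ± 0.07, FADS2 by 0.65 ± 0.12 and FADS1 by 0.54 ± 0.10. The genes that supply and polymerise acetyl-CoA were not called: ACLY was at 0.06 ± 0.08, ACSS2, the acetyl-CoA synthetase, at −0.04 ± 0.10, ACACA, acetyl-CoA carboxylase, at 0.19 ± 0.10 and FASN at 0.17 ± 0.12. Whether the desaturases differed from FASN in their response was not tested.

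ERB cells, compared with the same parental libraries, gave 15 called members, all higher, against 2.29% of all genes called higher. They showed SREBF2 at 1.23 ± 0.08, INSIG1 at 1.65 ± 0.16, SCD at 1.01 ± 0.07 and FADS2 at 1.01 ± 0.12. IDI1, the isopentenyl diphosphate isomerase, and STARD4 passed in this comparison, at 0.63 ± 0.15 (adjusted p = 0.042) and 0.84 ± 0.19 (adjusted p = 0.038). Both comparisons share the parental libraries, so a chance deviation of these would enter both. When vector and ERB cells were pooled, 15 members were called higher (2.55% of all genes), and 22 members had all 4 transduced libraries above both parental ones on the offset scale, against 14.1% of all genes; 0 members had them all below, against 12.3%. In the 16-library fit (edgeR) ERB and pooled cells gave 0 calls against parental cells (0.00573% and 0.0% of all genes), with 4 members each at an unadjusted p under 0.05; limma-voom called 0 in both, and DESeq2 0 and 1. The pooled comparison there had INSIG1 at 1.62 (adjusted p = 0.55) and SREBF2 at 1.26 (adjusted p = 0.66). In the offset fit of the pooled comparison 2 of 8 amino acid stress genes (DDIT4 and TRIB3) and 2 of 7 tested epithelial markers were also called higher, and their part in the rise of the members was not tested.

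The count for vector cells was sensitive to single libraries: leaving out 1 of the 10 SW620 libraries at a time left 10 calls without either parental library, 7 without either ERB or either E2 library, and 5 without either vector or either DMSO library. For ERB cells it fell to 7 and 6 without the first and second ERB library and was 10 to 14 otherwise, and for the pooled comparison it was 11 to 15.

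**Figure D3:**
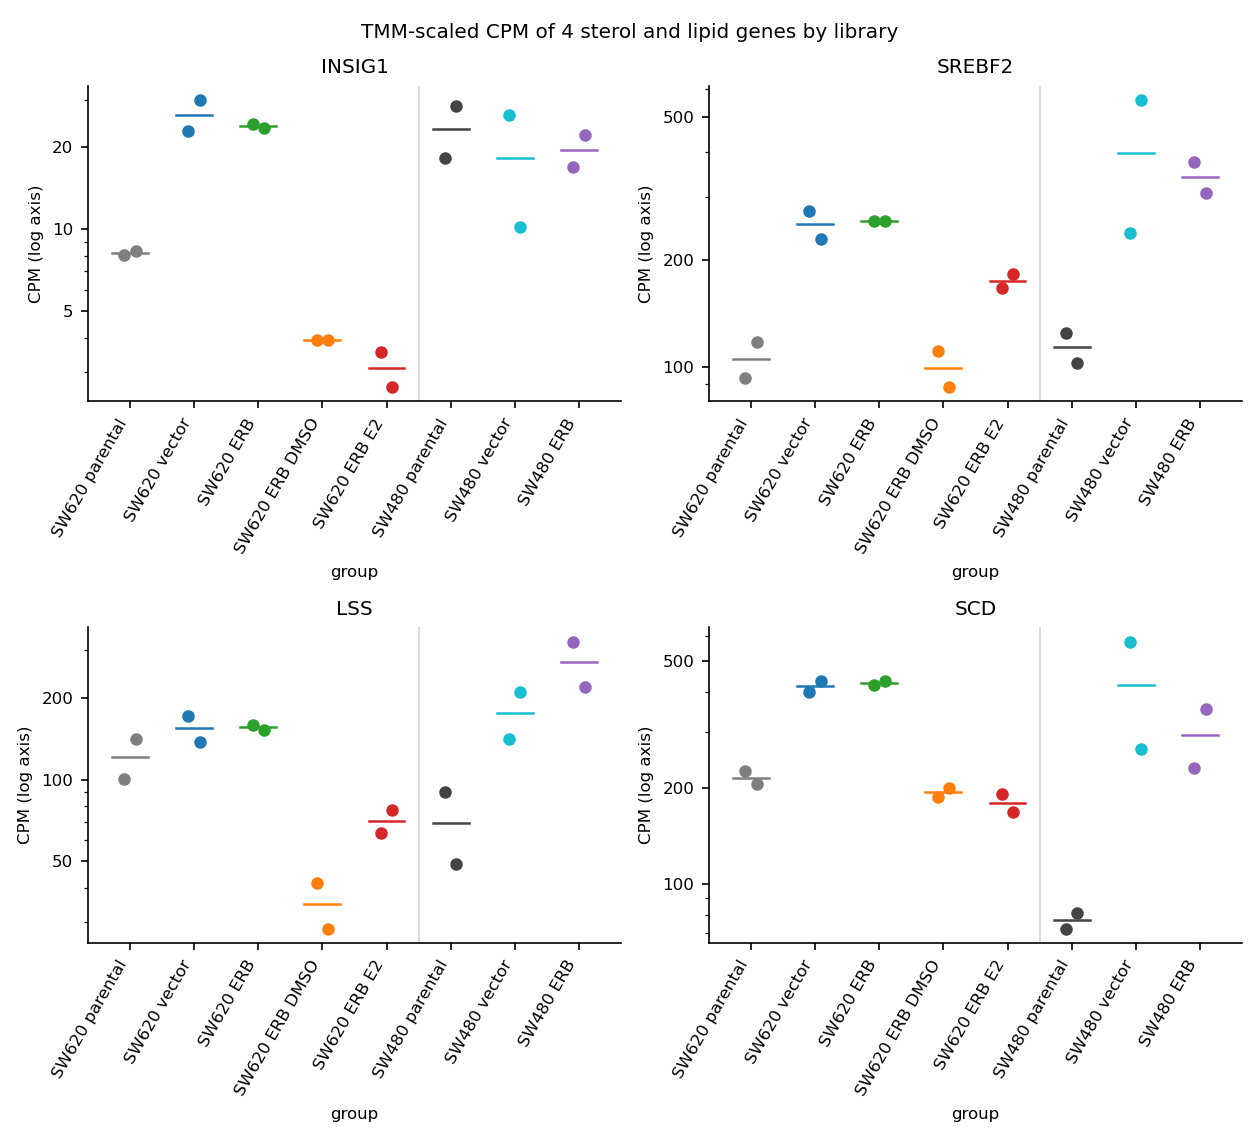
TMM-scaled CPM of INSIG1, SREBF2, LSS and SCD in each library by group, log axes; points are libraries and bars are group means of 2 libraries. INSIG1 lies at 8.06 and 8.33 in parental SW620, at 22.9 to 29.8 in the 4 untreated transduced SW620 libraries and at 2.63 to 3.92 in the 4 treated ones.

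Vector and ERB cells were compared with each other for the effect of the receptor itself without added ligand. None of the 32 genes passed the test in SW620. In the 16-library fit (edgeR) 0 members were called and 0 had an unadjusted p under 0.05 (0.00573% of all genes called); DESeq2 and limma-voom called 0, and the SW620 fit with offsets called 0 (0.0181% of all genes), with 2 members at an unadjusted p under 0.05. The members' median log2 fold change was 0.00 and their range −0.46 to 0.35. The 3 members with the smallest p were NSDHL at −0.28, FADS2 at 0.34 and CYP51A1 at −0.46, each with an adjusted p of 1.0. NSDHL was at 84.0 and 64.4 CPM with vector and 56.3 and 65.8 with ERB, which overlap, whereas FADS2 was at 38.0 and 30.0 against 42.9 and 43.1, which do not. SREBF1, at 204 and 175 with vector and 187 and 187 with ERB, and SCAP, at 102 and 83.4 against 89.6 and 89.9, overlapped. In the SW620 fit with offsets SREBF2 was at 0.03 ± 0.08, SREBF1 at 0.02 ± 0.10, INSIG1 at −0.09 ± 0.15 and INSIG2 at −0.19 ± 0.19.

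ERB cells that had been given DMSO or E2 were compared with untreated ERB cells. Both treated groups had lower levels of INSIG1 and of most synthesis genes, whether or not the hormone was present, with exceptions given below. INSIG1 was at 24.4 and 23.6 CPM in untreated ERB cells, 3.92 in both DMSO libraries, and 3.54 and 2.63 with E2. ACAT2 was at 177 and 202, then 44.9 and 52.7, then 61.4 and 56.3. LSS was at 159 and 153, then 41.6 and 28.3, then 63.9 and 77.6. For these 3 genes all 4 treated libraries lay below both untreated ones. SCD, at 419 and 433 untreated, was at 187 and 200 with DMSO and 191 and 168 with E2, and FDFT1, at 378 and 394, was at 136 and 149 and then 209 and 212. DHCR7 followed the same course, from 298 and 282 to 87.2 and 73.4 and then 153 and 165. ACSS2 fell from 105 in both libraries to 30.1 and 32.8 with DMSO and 51.8 and 52.9 with E2, and ACLY from 588 and 617 to 262 and 237 and then 366 and 356. No treated library reached an untreated one for any of these genes either.

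In the 16-library fit, DMSO against untreated ERB cells gave 8 called members, all lower, against 3.76% of all genes called lower: INSIG1 (log2 −2.61, adjusted p = 0.0093), LSS (−2.16), ACAT2 (−1.96), DHCR7 (−1.85), ACSS2 (−1.74), FDFT1 (−1.44), SREBF2 (−1.37) and ACLY (−1.27), the last 7 with adjusted p of 0.01 to 0.043. Both treated groups together against untreated cells also gave 8, all lower, against 3.72% of all genes: INSIG1 at −2.78 (adjusted p = 0.0022), ACAT2 at −1.82, LSS at −1.65, DHCR7 and ACSS2 at about the same change (−1.36 and −1.37), SCD at −1.19, FDFT1 at −1.15 and ACLY at −1.01. SREBF2 was here at −0.96 (adjusted p = 0.076) and SREBF1 at −1.02 (adjusted p = 0.19), and SCAP and INSIG2 were at 0.02 and 0.82, not called. On the TMM scale 21 members had all 4 treated libraries below both untreated ones, against 19.6% of all genes, and 1 had them above, against 18.1%. These counts rested on few libraries: DMSO against untreated gave 0 calls without any 1 of these 4 libraries and 19 without either library labelled SW480 with vector, and the pooled count was 1 without either untreated ERB library, 2 or 3 without any treated library, and 13 or 14 without either library labelled SW480 with vector.

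The fit of SW620 alone with offsets called more members, and many more genes of all kinds. With both treated groups together 25 members fell and 3 rose, while 23.8% of all 16533 genes fell and 21.7% rose. The median member was at −0.82 and the median gene at 0.01. Leaving out 1 library at a time gave 25 to 29 called members. No share of all genes stands beside this range, so it is not read as a result about the members. INSIG1 fell 7.72-fold (log2 −2.95 ± 0.14, adjusted p = 1.7e-07), ACAT2 3.64-fold (−1.86 ± 0.08, adjusted p = 1.1e-07) and LSS 2.83-fold (−1.5 ± 0.08, adjusted p = 4.8e-07). Of the 6 regulators, SREBF2, SREBF1 and STARD4 also fell, by 0.84, 0.78 and 1.43 on the log2 scale. SCAP rose by 0.27 ± 0.08 (adjusted p = 0.024) and INSIG2 by 0.45 ± 0.16 (adjusted p = 0.042), so that the pair INSIG1 and INSIG2 moved in opposite directions.

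Of the 7 mevalonate genes 6 fell, IDI1 at −1.37 ± 0.12 and HMGCS1 at −0.98 ± 0.16 next after ACAT2, and PMVK, at 0.19 ± 0.09, was not called. Of the 11 genes from squalene to cholesterol 8 fell, among them HSD17B7 at −1.31 ± 0.22, SQLE at −1.27 ± 0.13, FDFT1 at −1.22 ± 0.09, DHCR7 at −1.17 ± 0.06, NSDHL at −0.87 ± 0.10 and EBP at −0.75 ± 0.09. TM7SF2 rose, from 33.1 and 35.1 CPM with offsets in untreated ERB cells to 45.4 and 46.6 with DMSO and 46.0 and 47.2 with E2 (log2 0.46 ± 0.09, adjusted p = 0.0015). TM7SF2 encodes a sterol reductase whose step another enzyme can also carry out. It was the one synthesis enzyme called higher in this comparison and fit. Without offsets its DMSO libraries lay below untreated ERB cells (27.5 and 20.1 against 32.9 and 32.6 CPM) and its E2 libraries above them (44.3 and 59.7). SCAP was likewise lower with DMSO and higher with E2 on that scale, so the direction of both genes rests on the offsets. Without offsets the SW620 libraries alone called 23 members lower and 0 higher (13.8% of all genes higher and 16.9% lower): TM7SF2, SCAP and INSIG2 were not called, nor were HMGCS1 (−0.67 ± 0.30, adjusted p = 0.11) and MSMO1 (−0.19 ± 0.25, adjusted p = 0.59). On the TMM scale HMGCS1 with DMSO (39.4 and 43.6 CPM) overlapped untreated ERB cells (45.1 and 42.8), as did STARD4 (6.81 and 7.21 against 7.05 and 7.16), and both were lower in the E2 libraries. CYP51A1 at −0.80 ± 0.40 and SC5D, a sterol desaturase, at −0.02 ± 0.23 were not called with offsets. On the TMM scale SC5D was higher with DMSO (20.0 and 25.5 CPM) than in untreated ERB cells (11.2 and 7.67). With E2 it was lower (6.72 and 4.57). Of the 8 fatty acid genes 7 fell, from SCD at −1.34 ± 0.06 and ACSS2 at −1.28 ± 0.08 to ACACA at −0.63 ± 0.08 and FADS1 at −0.55 ± 0.09. The elongase ELOVL6, at 0.12 ± 0.16, was not called. On the TMM scale it was at 13.2 and 14.5 CPM with DMSO and 6.35 and 5.58 with E2, against 6.63 and 7.01 untreated. For DMSO alone, the SW620 fit without offsets called SC5D, ELOVL6 and INSIG2 higher, when 23.6% of all genes were higher and 25.2% lower. That fit called lower 7 genes from squalene to cholesterol, 7 fatty acid genes, 5 mevalonate genes and 4 regulators.

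Other features of the treated libraries moved with these genes. Of 8 amino acid stress response genes, among them DDIT3, ATF3, ASNS and TRIB3, 7 rose in the 16-library fit and 8 in both SW620 fits, and their summed level was 160 to 241 CPM in the 6 untreated SW620 libraries, 2720 and 2600 with DMSO, and 4570 and 4900 with E2. The summed level of the 8 epithelial markers was 6560 to 12100 CPM in untreated SW620, 3960 and 3410 with DMSO, and 7110 and 8420 with E2, and in the SW620 fit with offsets 5 of the 7 tested fell and 1 rose. DMSO libraries were the GC-poorest of SW620. The part of the stress response, of the fall in epithelial transcripts and of anything else that differed between treated and untreated cultures in the fall of the synthesis genes was not tested. The untreated ERB cells were not given DMSO, so DMSO and any other step of the treatment cannot be told apart.

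**Figure D4:**
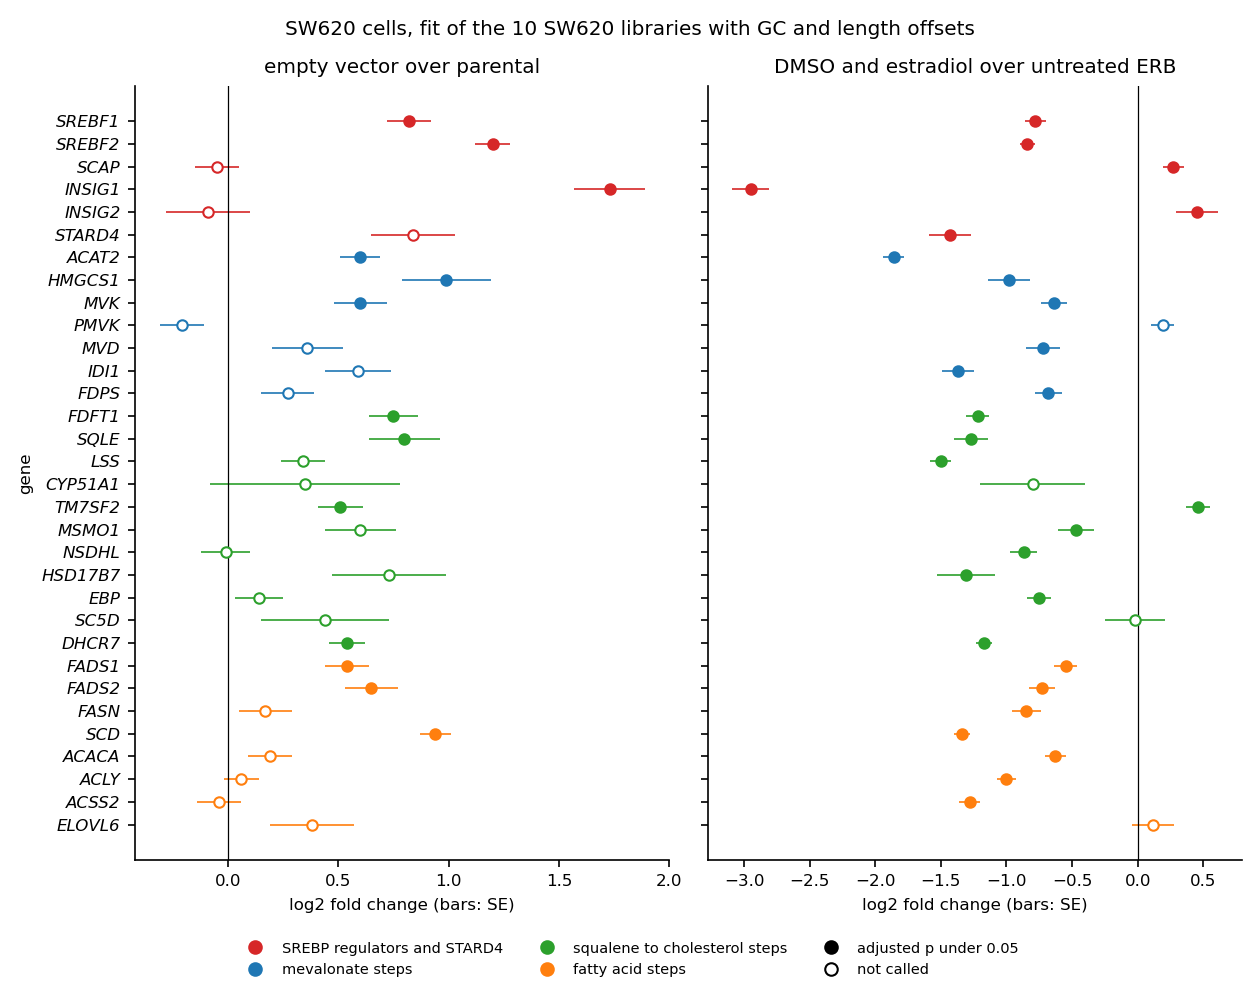
Log2 fold change with its SE for each of the 32 genes in the offset fit of the 10 SW620 libraries, for empty vector over parental cells (left) and for DMSO and E2 together over untreated ERB cells (right); colours are roles, and filled points passed an adjusted p of 0.05. On the left 13 filled points lie to the right of 0, and on the right 25 lie to the left and 3 to the right.

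Vector against parental cells and treated against untreated ERB cells share no library. Both sets of calls nevertheless come from the same fit with offsets. In that fit the spread of each gene and the offsets are estimated from all its libraries together. The calls being compared here, for the members and for all genes, are therefore not independent of each other. Of the 13 members that rose with vector, 12 fell with treatment (92.3% of the 13 and 48.0% of the 25 that fell), and the other one, TM7SF2, rose in both. Of all genes, 140 rose with vector and 85 of these fell with treatment (60.7%), against 23.5% of the genes that did not rise with vector. Of the 19 members not called with vector, 13 fell with treatment. LSS, ACLY, ACSS2 and NSDHL were among the latter: they fell by 1.5, 1.0, 1.28 and 0.87 on the log2 scale with treatment and had not been called with vector.

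E2 was compared with DMSO for the effect of the hormone in ERB cells. Without correction for GC content, members with GC-rich transcripts were higher and members with GC-poor transcripts lower with E2. SREBF1 was at 75 and 44.8 CPM with DMSO and 128 and 155 with E2, SREBF2 at 111 and 88.0 against 167 and 182, and SCAP at 67.0 and 55.1 against 121 and 152. In the other direction, INSIG2 was at 8.73 and 11.9 with DMSO against 4.34 and 4.07, and STARD4 at 6.81 and 7.21 against 1.77 and 1.63. None of these 5 genes overlapped between the groups. INSIG1, at 3.92 in both DMSO libraries and 3.54 and 2.63 with E2, was low in all 4 libraries. LSS and DHCR7, called lower with treatment above, were at 41.6 and 28.3, and 87.2 and 73.4, with DMSO and at 63.9 and 77.6, and 153 and 165, with E2.

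In the 16-library fit (edgeR) 0 members were called (0.0% of all genes), with 11 at an unadjusted p under 0.05. No share of all genes stands beside the 11, so it is not read as a result about the members. DESeq2 and limma-voom called 0. Over the 32 members the log2 fold change and GC content had a Pearson r of 0.93. The 9 members under 45% GC had a median of −1.21 with 0 above 0, and the 12 members at 55% GC or more had a median of 1.09 with all 12 above 0. The SW620 libraries alone without offsets called 17 members higher and 8 lower, when 29.4% and 23.6% of all genes were called. With offsets r was 0.38, the 2 medians were −0.14 and 0.20, and 4 members were called, against 10.9% of all genes called higher and 6.7% lower.

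The 4 were FASN at 0.52 ± 0.13 (adjusted p = 0.021), FDFT1 at 0.46 ± 0.11 (adjusted p = 0.022) and EBP at 0.41 ± 0.11 (adjusted p = 0.03), which were higher with E2, and SQLE at −0.66 ± 0.16 (adjusted p = 0.022), which was lower. SQLE was at 26.8 and 24.0 CPM with offsets under DMSO and 16.7 and 15.3 under E2, and FASN at 370 and 266 against 439 and 488. These calls were lost when single libraries were left out: 0 were left without the second DMSO library or without either E2 library, and 1 without the first DMSO library, while 7 were called without either parental library. SREBF2 was at 0.21 ± 0.08 (adjusted p = 0.089), SREBF1 at 0.31 ± 0.10 (adjusted p = 0.052), SCAP at 0.20 ± 0.10, INSIG1 at −0.17 ± 0.20 and INSIG2 at 0.24 ± 0.18, and none of the 5 was called. INSIG2, lower with E2 on the TMM scale, thus had the other sign with offsets. STARD4 with offsets was at 3.04 and 2.74 CPM under DMSO and 2.15 and 2.23 under E2. That gap was smaller than on the TMM scale, and STARD4 was not called.

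**Figure D5:**
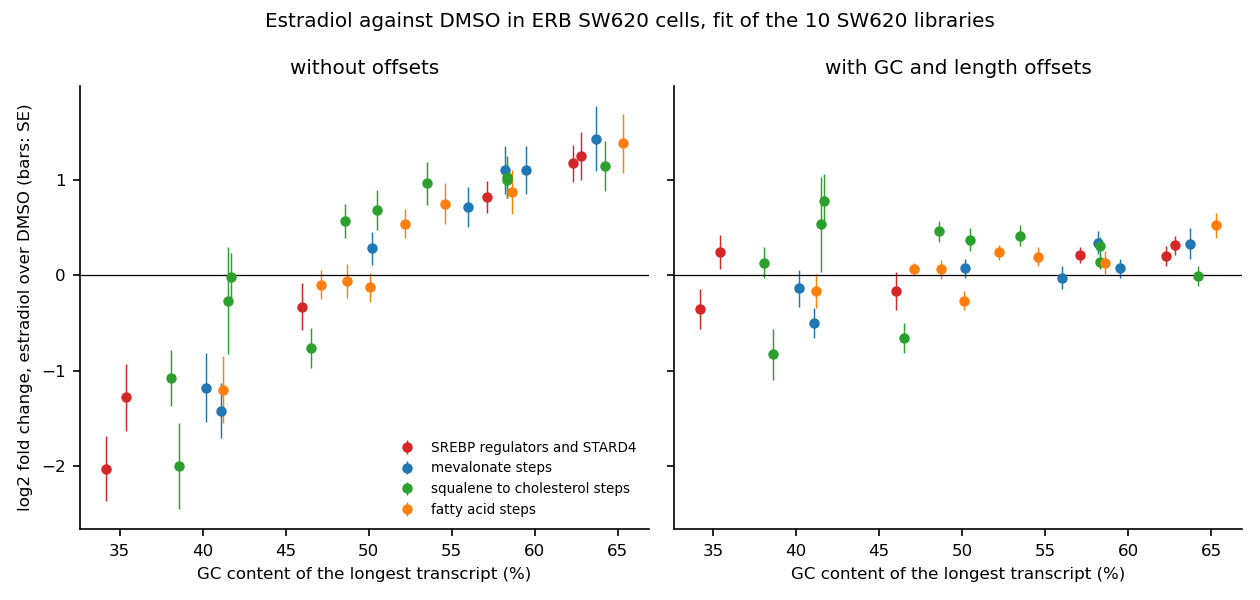
Log2 fold change of E2 over DMSO with its SE (vertical axis) against GC content of each member's longest transcript in percent (horizontal axis), in the fit of the 10 SW620 libraries without (left) and with (right) GC and length offsets; colours are roles. On the left the points climb with GC content (r = 0.93), and on the right they scatter closer to 0 (r = 0.38).

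In the libraries labelled SW480 with vector, INSIG2 and STARD4 fell and SCD, SREBF1, SREBF2 and several synthesis genes rose against parental SW480. INSIG2 was at 30.6 and 66.4 CPM in parental SW480, 4.21 and 1.45 in the libraries labelled vector and 1.37 and 1.99 in those labelled ERB. SCD was at 72.3 and 81.1, then 574 and 264, then 230 and 354. SREBF1 was at 47.9 and 29, then 142 and 540, then 430 and 305. No transduced library overlapped the parental ones for these genes, but libraries labelled alike differed from each other by a median of 1.36 (log2) over the members for vector. Of these the second also had a summed level of 4630 CPM of the 8 stress genes, against 237 in the first. Mitochondrial mRNAs summed to 31100 and 32900 CPM in parental SW480, 49500 and 123000 in the libraries labelled vector, and 81900 and 49100 in those labelled ERB, and the epithelial markers to 5610 and 2900, 8560 and 30400, and 29800 and 16100. The part of these differences in the comparison was not tested.

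The 16-library fit called 11 members for vector, 9 higher and 2 lower, against 14.9% and 16% of all genes (30.9% in all), and 16 for ERB, 12 higher and 4 lower, against 19.5% and 24.9% (44.4% in all). For vector these were INSIG2 (log2 −4.07 ± 0.59) and STARD4 (−3.12 ± 0.73), which fell, and SREBF1 (3.15 ± 0.55), SCD (2.45 ± 0.35), FASN (2.14 ± 0.58), FDFT1 (1.83 ± 0.30), SREBF2 (1.80 ± 0.36), DHCR7 (1.74 ± 0.38), MVK (1.57 ± 0.47), EBP (1.45 ± 0.42) and LSS (1.34 ± 0.37), which rose. For ERB, INSIG2 was at −4.83 ± 0.62 and STARD4 at −3.92 ± 0.76, and SC5D and MSMO1, a sterol methyl oxidase, also fell, by 2.92 and 2.1. Over the 32 members the log2 fold change and GC content had a Pearson r of 0.75 for vector and 0.84 for ERB, and SC5D and MSMO1, both GC-poor, were not called for ERB when the 6 libraries were fitted alone, with offsets (−1.13 ± 0.73 and −0.39 ± 0.58) or without (adjusted p of 0.16 and 0.2). SCAP and INSIG1 were called in neither. Without offsets, the 6 libraries labelled SW480 fitted alone called 1 member for vector (INSIG2) and 0 for ERB. With offsets they gave 6 higher and 2 lower for vector (5.97% and 11.3% of all genes) and 6 higher and 1 lower for ERB (3.14% and 7.47%); INSIG2 was then at −2.77 ± 0.34 and −2.63 ± 0.35 and SCD at 2.69 ± 0.27 and 2.25 ± 0.27. Single libraries mattered: the 16-library count for vector was 5 without the second parental SW480 library, 7 without the second vector library and 23 without the first, and the count for ERB was 7 without the second parental library and 5 without the first ERB library. Because the libraries labelled SW480 with vector carry little of the SW480 profile, these differences cannot be told apart from a difference between the lines. With offsets INSIG2 lay at 3.29 to 3.80 CPM in the 4 libraries labelled transduced SW480, at 3.47 to 5.38 in the 10 SW620 libraries and at 22.6 and 26.3 in parental SW480.

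Between the libraries labelled SW480 with ERB and with vector, edgeR called 0 members (1.1% of all genes), with 0 at an unadjusted p under 0.05, and DESeq2 and limma-voom called 0. The 3 with the smallest p were NSDHL at 0.70, LSS at 0.62 and SCD at −0.52. A test of the difference between the lines in the response to vector called 2 members as more negative in the libraries labelled SW480, INSIG2 and STARD4, against 4.2% of all genes. The same test of the response to ERB over vector called 0 members (0.189% of all genes, 0 members at an unadjusted p under 0.05).

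Other genes of sterol and lipid handling were set beside the members from lists that hold no member. In the 16-library fit of both treated groups against untreated ERB cells, 1 of 15 genes of sterol uptake, trafficking and esterification rose and 5 fell, when 2.43% of all genes rose and 3.72% fell. VLDLR, a lipoprotein receptor, was the one that rose, at 2.74 ± 0.43, and NPC1L1, the sterol importer of the intestinal brush border, at −2.74 ± 0.36, TMEM97, which acts on NPC1, at −1.18 ± 0.25, and NPC2, which moves cholesterol out of lysosomes, at −1.18 ± 0.27, were among those that fell. Of 14 genes of SREBP cleavage and sterol-regulated degradation, 1 fell, UFD1L at −0.95 ± 0.25. Of 25 further genes of fatty acid, triglyceride and phospholipid synthesis 2 fell, the citrate carrier SLC25A1 at −1.95 ± 0.47 and PNPLA3 at −1.86 ± 0.33. Of 17 fatty acid oxidation and PPAR genes 1 fell, FABP1 at −2.00 ± 0.50, of 14 other sterol and isoprenoid genes 1 fell, and of 9 tested LXR receptors and targets 0 were called.

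With the SW620 libraries alone and offsets, the counts for treatment were 3 higher and 8 lower of 15 for uptake and trafficking, 6 and 4 of 14 for cleavage and degradation, 4 and 2 of 9 for LXR genes, 3 and 5 of 14 for other sterol genes, 5 and 11 of 25 for other lipid synthesis genes, and 2 and 8 of 15 for fatty acid oxidation, beside 3 and 25 of the 32 members and 21.7% and 23.8% of all genes. Several of these list counts lay near the shares over all genes. For vector and ERB cells together against parental cells they were 2 and 0 of 15, 0 and 0 of 14, 1 and 0 of 9, 1 and 1 of 14, 1 and 0 of 25 (ACSL3, a fatty acid ligase, at 0.64 ± 0.11) and 0 and 0 of 15, beside 15 and 0 of the members and 2.55% and 2.02% of all genes. The median log2 fold change of these lists in that comparison ran from −0.03 to 0.28, and that of the members was 0.52. Whether the lists differed from the members was not tested.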

How the data were processed

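Read counts per gene and FPKM were deposited by the authors for all 16 libraries. Per the labels' protocols, libraries were made with a stranded poly(A) kit, and the tools, per the submitters' processing notes, were HTSeq 0.6.1, Cufflinks 2.1.1, TopHat2 2.0.4, Picard 1.29 and SAMtools, on build GRCh37, with no link from tool to table and no word on strand. The counts deposited by the authors cover 63677 identifiers, with 0 lines naming no gene, and the authors' FPKM 63655; 3 members have a second identifier with no reads. The precision of low genes is limited by depth (12743940 to 18948283 reads).

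Counts were tested with edgeR 4.0.16 (quasi-likelihood F test, filterByExpr, TMM factors 0.585 to 1.36, R 4.3.3) over all 16 libraries in 8 groups, with Benjamini-Hochberg adjustment over 17464 genes and calls at an adjusted p under 0.05. CPM here are scaled by TMM. For the fits with offsets, each gene's log2 CPM was taken as its deviation from the gene's mean over the libraries in the fit. Per library these deviations were regressed on GC content and log2 length of the longest GENCODE 29 transcript (natural splines, 5 df each). A value was available for 98.8% of tested genes. The fitted trends, centred across libraries, were the offsets, which therefore depend on the libraries in the fit. These offsets remove any real difference that follows GC content or length. DESeq2 1.42.0, limma-voom (limma 3.58.1), log2(FPKM + 1) and other filters were alternatives. The fit of 1 line with offsets is an alternative beside the fit of all 16 libraries; leaving out libraries from it and testing the difference between lines were added after seeing the data. The count model and the offsets were tested on simulated data.

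The members and gene lists were chosen with earlier results of these data known. Named were SREBF1, SREBF2, SCAP, INSIG1 and INSIG2 always, per comparison up to 8 called members per direction by smallest p, and the 3 with the smallest p where none was called; members named from the fits with offsets were chosen after their values were seen. Promoters are from RefSeq (GRCh38.p14); no coordinates of GRCh37 were used.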

Additional observations from a re-analysis of the deposited data

Results flagged for a closer look

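The response to the empty vector differed between the lines for 2 of the 32 genes by a test of the difference itself (edgeR's quasi-likelihood test in the fit of all 16 libraries, adjusted over all genes, 4.2% of which were called lower). For INSIG2 the effect labelled SW480 minus that in SW620 was −4.05 ± 0.77 (SE; adjusted p = 0.0094), and for STARD4 it was −4.04 ± 1.0 (adjusted p = 0.031). In both cases the SW480 term rests on libraries that went against their line label, so the difference cannot be told apart from a difference between the lines. A count of 2 of 32 is not far above 4.2%. Both genes have the GC-poorest transcripts of the members (35.4 and 34.2%), and the fit had no offsets. With offsets in each line's own fit INSIG2 was at −2.77 for vector labelled SW480 and −0.09 for SW620. STARD4 with offsets was at 7.66 and 4.77 CPM (vector) against 18.2 and 21.2 (parental) labelled SW480, and 7.08 and 6.65 against 3.94 and 3.67 in SW620. The difference was not tested with offsets. INSIG1 at −2.03 (adjusted p = 0.06), SREBF1 at 2.32 (adjusted p = 0.075) and SCD at 1.49 (adjusted p = 0.079) missed the threshold.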

How the results depend on the processing

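Counts of called members depended mainly on the handling of GC content and on which libraries shared the fit. In the order parental lines, SW620 vector, SW620 ERB and both against parental cells, DMSO against untreated, and both treatments against untreated, the fit of all 16 libraries called 4, 0, 0, 0, 8 and 8 members; with GC and length offsets it called 11, 2, 4, 4, 21 and 23 (32.9, 0.0744, 0.344, 0.309, 20.7 and 22.7% of all genes). The line's own libraries called 2, 3, 3, 26 and 23 in the last 5 of these without offsets (0.0847, 0.345, 0.333, 48.8 and 30.7% of all genes) and 13, 15, 15, 26 and 28 with them. With offsets 0.847, 2.29 and 2.55% of all genes were called higher in the first 3, and 21.7% higher and 23.8% lower in the last. For E2 against DMSO the counts were 0 in the 16-library fit (0.0% of all genes), 25 in the line's own libraries (53.0%) and 4 with offsets there (10.9% higher and 6.7% lower). For the libraries labelled SW480 with vector the 11 calls (30.9% of all genes) became 17 with offsets (39.8%) and 1 in the line's own libraries (4.39%). For those labelled ERB the 16 (44.4%) became 0 in the line's own libraries (0.0%) and 7 with offsets there (3.14% higher and 7.47% lower). Without the filter on low counts there were 8 calls between parental lines, 17 for DMSO and 5 for E2 against DMSO. DESeq2 gave 15 for DMSO and 1 for both transduced groups. On log2(FPKM + 1), log2(FPKM + 0.1) and log2(FPKM + 1) without a filter, SW620 vector, ERB and both against parental cells had 1 call each and SW480 ERB had 10. SW480 vector had 6 without a filter. No share of all genes stands beside the counts without the filter, of DESeq2 or on FPKM, nor beside the 26 for DMSO with offsets. The same holds for the counts, above and below, that leave out libraries or use a replicate block. It also holds for member counts at an unadjusted p, except that for SW620 vector against parental cells. These counts are not read as results about the members.

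Leaving out 1 library at a time from the 16 gave 2 to 9 calls between parental lines, 0 for the 3 comparisons of transduced with parental SW620, 0 for ERB against vector and for E2 against DMSO, 0 to 19 for DMSO, 1 to 14 for both treatments, 5 to 23 and 5 to 22 for SW480 vector and ERB, and 0 to 1 between the latter. In the line's own libraries with offsets the ranges were 5 to 10, 6 to 14 and 11 to 15 for vector, ERB and both, 24 to 28 for DMSO, 0 to 7 for E2 against DMSO, 25 to 29 for both treatments, 3 to 10 and 0 to 12 for SW480 vector and ERB, and 0 for ERB against vector in either line. With the replicate number as a replicate block, counts were 4 between parental lines, 0 for each comparison of untreated SW620 groups and for E2 against DMSO, 7 for DMSO, 7 for both treatments, and 11, 14 and 0 for the SW480 comparisons. The numbers did not pair libraries: over 28 pairs of groups the correlation of same-numbered deviations ran from −0.74 to 0.66 (median −0.05, 9 over 0.1), and 6 of 16 libraries correlated best with their own number. Of 2758 recomputed fold changes of named genes, 2395 kept direction and side of the threshold, 201 lost the call, 95 gained one, 67 values without a call moved by more than 1 SE, and 0 called values reversed; 66 values, none called, had the other sign. The cause of these moves was not tested.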

Other observations

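Summed over the 32 genes, TMM-scaled CPM were 3080 and 3880 in parental SW620, 4270 to 4890 in the 4 untreated transduced SW620 libraries, 2040 and 1850 with DMSO, and 2860 and 3100 with E2. On this scale both DMSO libraries lay below every other SW620 library, and 1 E2 library lay between the parental ones. With GC and length offsets the median log2 level of the members relative to parental SW620 was −0.04 and 0.04 in parental cells, 0.45 to 0.52 in the 4 untreated transduced libraries, −0.32 and −0.39 with DMSO and −0.25 and −0.30 with E2, so that both treated groups lay below the parental libraries. In the libraries labelled SW480 the sums were 3230 and 2280 in parental cells, 4790 and 6810 with vector, and 7960 and 5910 with ERB.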
